A study of Arabidopsis thaliana with 8 samples.

Results

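The xyloglucan endotransglucosylase/hydrolase (XTH) family of Arabidopsis thaliana, which includes the touch gene TCH4 (XTH22), was taken as the 33 loci XTH1 to XTH33. All 33 were found by locus identifier among the 36796 genes of the deposited count table. The data are RNA-seq counts from whole rosettes of accession Col-0, 17 days old and not bolted. They cover 4 libraries of the double mutant hta9 hta11 and 4 libraries of the wild type, each made from 5 pooled plants grown in soil under 16 h light and 8 h dark at 22°C and harvested 6 h after lights on. The mutant carries lesions in HTA9 and HTA11, genes for the histone variant H2A.Z, whose kind and position the labels do not give, and a further H2A.Z gene, HTA8, is not mutated by the label. Set against the wild type, the mutant shows which transcripts differ when these H2A.Z genes carry lesions.

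XTH enzymes act on xyloglucan, the main hemicellulose that coats and tethers cellulose microfibrils in the primary wall of Arabidopsis. Most members cut a xyloglucan chain and join the cut end to another chain, which lets a wall be loosened, rebuilt or thickened during growth, while a few mainly hydrolyse the chain. Many members are known for responses to touch, temperature, auxin, brassinosteroid or shade, and several are known from roots. H2A.Z occupies nucleosomes near transcription start sites and, at responsive genes, across the gene body.

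A search of the coding sequences for the family's catalytic site matched 31 of the 33 members. The stretches below are the coding strand around it, 5′ to 3′, from the RefSeq annotation of TAIR10.1, with the codons of the site in capitals. They are shown for the 4 members that changed between the genotypes and for XTH18, the neighbour of XTH19 on chromosome 4, because the close likeness of the last pair bears on how well counts can be told apart.
XTH22: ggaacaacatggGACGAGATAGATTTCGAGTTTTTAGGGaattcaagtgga
XTH27: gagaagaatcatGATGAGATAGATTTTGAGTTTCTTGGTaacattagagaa
XTH31: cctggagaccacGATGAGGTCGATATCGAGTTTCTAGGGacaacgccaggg
XTH19: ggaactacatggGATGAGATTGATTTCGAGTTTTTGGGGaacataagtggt
XTH18: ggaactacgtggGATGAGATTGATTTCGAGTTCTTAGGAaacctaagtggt

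Library totals ran from 31611735 to 47467130 counts in hta9 hta11 and from 32027511 to 40635454 counts in the wild type. The targeted gene HTA9 held 60.6, 14.8, 33.4 and 16.5 CPM (the count as a share of the TMM-scaled library size, times 1e6) in hta9 hta11 libraries 1 to 4, against 103.9, 91.5, 99.8 and 86.0 CPM in the wild type (log2 fold change -1.60, SE 0.38, edgeR adjusted p = 0.0457). HTA11 held 26.03, 2.98, 14.1 and 3.60 CPM in the same hta9 hta11 libraries, against 54.1, 38.5, 45.4 and 41.6 CPM in the wild type (-1.93, SE 0.56, edgeR adjusted p = 0.0924). The groups did not overlap for either gene. The hta9 hta11 libraries 1 and 3 thus kept more HTA9 and HTA11 reads than libraries 2 and 4. The leaf markers RBCS1A, LHCB1.3, RCA and RBCS3B summed to 43750 to 49930 CPM in hta9 hta11 and 47715 to 56639 CPM in the wild type. The 7 root markers summed to 1.86 to 3.13 CPM in hta9 hta11 and 1.65 to 2.69 CPM in the wild type, with MRN1 at 0 in all libraries and NRT2.1 the highest of the list. The 5 floral markers summed to 7.13 to 14.8 CPM in hta9 hta11 and 2.61 to 3.09 CPM in the wild type, and 4 of the 5 (AP1, AP3, PI and SEP3) passed as higher. The fifth, AG, did not pass and averaged 0.708 CPM in hta9 hta11 and 0.996 CPM in the wild type (log2 fold change -0.49, edgeR adjusted p = 0.301). The levels of these 4 floral genes thus moved with genotype, and their part in the XTH results was not tested.

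Of the 33 members, 22 passed the filter on low counts and were tested, and each of these averaged at least 1 CPM in both genotypes. Between genotypes 3 fell in hta9 hta11 (TCH4, XTH27 and XTH31), 1 rose (XTH19) and 18 did not pass. In a bulk sample, fewer cells of a type and less RNA per cell cannot be told apart, which holds for every difference given here. Genes were tested in edgeR by quasi-likelihood across all 20214 genes that passed the filter, and a gene passed at a Benjamini-Hochberg adjusted p under 0.05. At that threshold 3.74% of all genes passed, with 1.25% of all genes lower and 2.49% higher in hta9 hta11. The median log2 fold change was -0.08 over the 22 members and -0.0014 over all genes tested. The family as a whole summed to 1070 to 1215 CPM in hta9 hta11 and 1047 to 1417 CPM in the wild type, so the ranges overlapped. The count of 4 members depended on single libraries. It was also 4 without hta9 hta11 library 1, with XTH30 in and XTH31 out. It dropped to 1 without hta9 hta11 library 2 or 3 or any 1 of the wild-type libraries. Without hta9 hta11 library 4 it dropped to 0. The calls over all genes moved as well, from 757 in the main fit to 1246 without hta9 hta11 library 1. They were 293 without hta9 hta11 library 2, 531 without library 3 and 208 without library 4. Without any 1 of the wild-type libraries they were 395 to 472.

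**Figure D1:**
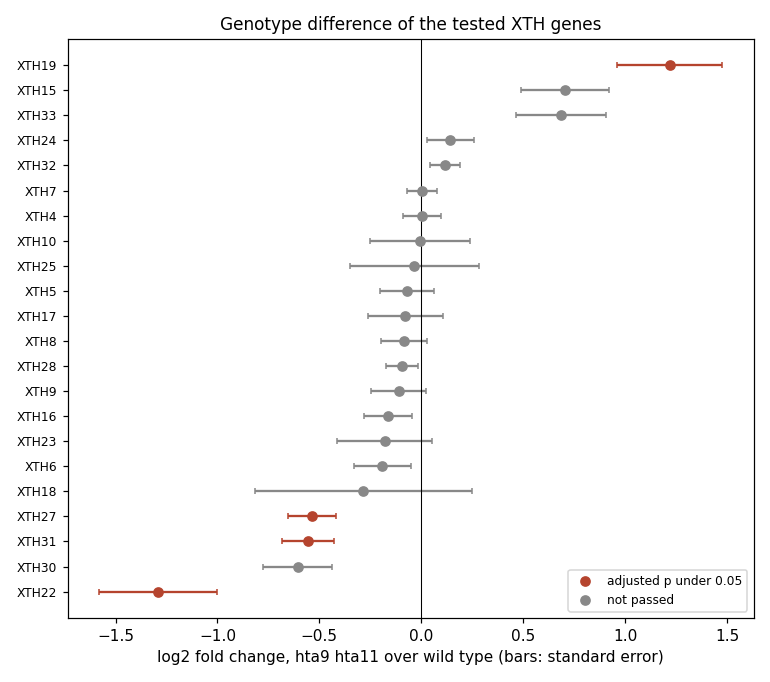
Log2 fold change of hta9 hta11 over wild type for the 22 tested XTH genes (x axis, bars are standard errors from edgeR, 4 libraries per genotype), sorted by size. TCH4 (XTH22) lies lowest at -1.29 and XTH19 highest at 1.22, and most members lie near 0.

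TCH4 showed the deepest fall of the tested members. It encodes a xyloglucan endotransglucosylase and is a classic gene induced within minutes by touch, and also by brassinosteroid, auxin and temperature shifts. TCH4 (AT5G57560, chromosome 5, 23307006 to 23308680 on TAIR10.1, minus strand) held 46.2, 25.2, 17.4 and 28.6 CPM in hta9 hta11 libraries 1 to 4, against 72.3, 48.5, 65.4 and 102 CPM in wild-type libraries 1 to 4. The groups did not overlap, although hta9 hta11 library 1 lay just below wild-type library 2, and 11.3% of all genes tested also showed no overlap. The means were 29.3 ± 12.2 CPM in hta9 hta11 and 72.1 ± 22.5 CPM in the wild type (SD, n = 4 each). The log2 fold change was -1.29 (SE 0.29), a level 0.408 times that of the wild type (edgeR adjusted p = 0.0379). The call ended without hta9 hta11 library 2, 3 or 4 or wild-type library 1, 3 or 4. In those fits the log2 fold change lay between -1.34 and -1.08, and the adjusted p was highest, at 0.119, where hta9 hta11 library 4 was absent. With hta9 hta11 libraries 1 and 3 both left out, which was tried after the data had been examined, the call held.

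XTH27 and XTH31 fell by less. XTH27, also named EXGT-A3, is known from the development of tracheary elements in the fine veins of rosette leaves. XTH27 (AT2G01850, chromosome 2, 385171 to 387478, plus strand) held 79.9, 74.4, 76.2 and 68.9 CPM in hta9 hta11, against 102, 99.5, 94.9 and 138 CPM in the wild type. All hta9 hta11 libraries lay below all wild-type libraries, and wild-type library 4 stood above the other three. The means were 74.9 ± 4.60 CPM in hta9 hta11 and 108 ± 19.8 CPM in the wild type, and XTH27 fell by 0.53 on the log2 scale (SE 0.12, edgeR adjusted p = 0.0348). This call ended without hta9 hta11 library 2, 3 or 4 or wild-type library 1 or 2, and without hta9 hta11 libraries 1 and 3 together. The highest adjusted p of these fits was 0.122, where hta9 hta11 library 4 was absent.

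XTH31, also named XTR8, belongs with XTH32 to the branch whose enzymes mainly hydrolyse xyloglucan. XTH31 (AT3G44990, chromosome 3, 16446935 to 16448844, minus strand) held 22.6, 19.4, 31.0 and 24.7 CPM in hta9 hta11, against 36.7, 37.0, 33.1 and 36.3 CPM in the wild type. The groups did not overlap, and hta9 hta11 library 3 came closest to the wild type. The means were 24.4 ± 4.89 CPM in hta9 hta11 and 35.8 ± 1.80 CPM in the wild type, and XTH31 fell by 0.55 on the log2 scale (SE 0.13, edgeR adjusted p = 0.0406). The call held without hta9 hta11 library 3 but not without any other single library. Leaving out hta9 hta11 library 4 gave the highest adjusted p, 0.121. Its relative XTH32 held 22.0 to 24.1 CPM in hta9 hta11 and 20.3 to 22.6 CPM in the wild type and missed the threshold, with a difference of 0.12 on the log2 scale (SE 0.07, adjusted p = 0.449).

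XTH19 was the member that rose. It is best known from roots, as are its close relatives XTH17, XTH18 and XTH20, and its promoter responds to auxin. XTH19 (AT4G30290, chromosome 4, 14828712 to 14830224, minus strand) held 4.62, 2.29, 4.06 and 3.95 CPM in hta9 hta11, against 2.36, 1.28, 1.40 and 1.38 CPM in the wild type. The groups overlapped, since hta9 hta11 library 2 lay below wild-type library 1, while the other hta9 hta11 libraries lay above all wild-type libraries. The means were 3.73 ± 1.01 CPM in hta9 hta11 and 1.60 ± 0.504 CPM in the wild type, and XTH19 rose by 1.22 on the log2 scale (SE 0.26, edgeR adjusted p = 0.0304). The call ended without hta9 hta11 library 3 or 4, without wild-type library 2, 3 or 4 and without hta9 hta11 libraries 1 and 3 together, where the adjusted p reached 0.134. Without any single library the log2 fold change stayed between 1.09 and 1.46.

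**Figure D2:**
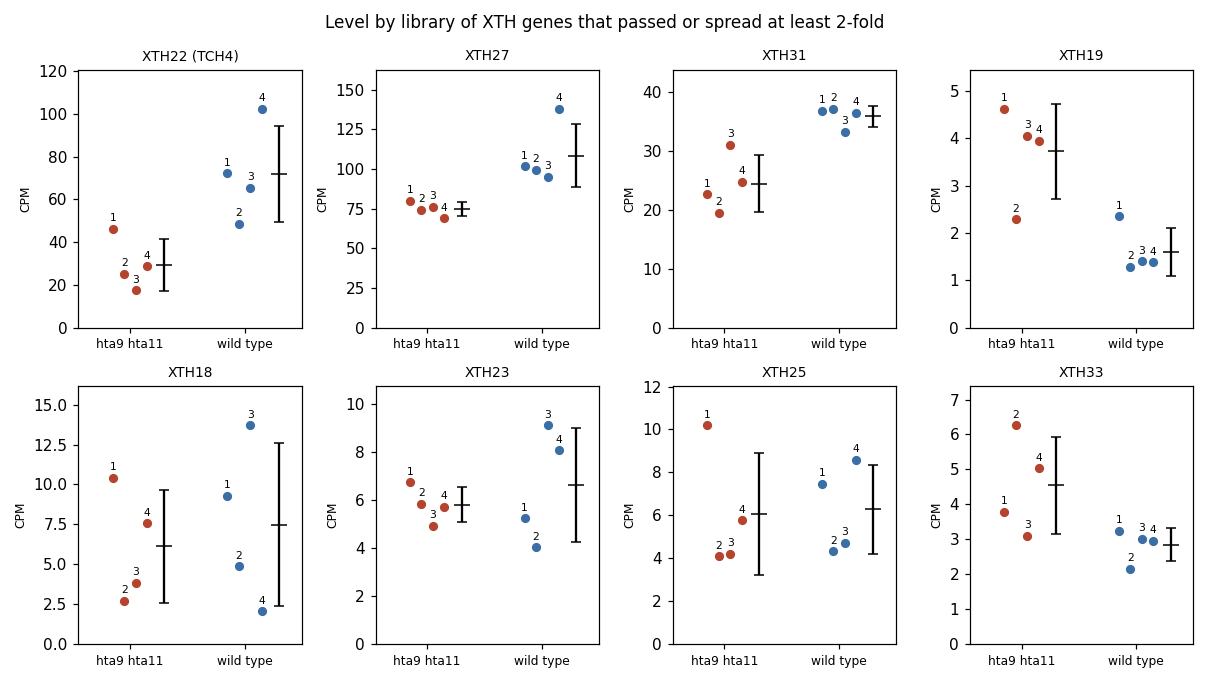
CPM (y axis, from 0) in each library of the 8 XTH genes that passed or spread at least 2-fold within a genotype. Points are libraries with their replicate number, and the bar beside them is the mean with SD (n = 4). TCH4, XTH27 and XTH31 in hta9 hta11 lie below every wild-type library, while XTH18, XTH23, XTH25 and XTH33 overlap between genotypes.

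The 250 bases before the annotated start are shown for TCH4, which fell most, and for XTH19, which rose, as read from TAIR10.1 on the strand of the gene. TCH4 lies at chr5:23308681-23308930 and XTH19 at chr4:14830225-14830474, both on the minus strand.
TCH4: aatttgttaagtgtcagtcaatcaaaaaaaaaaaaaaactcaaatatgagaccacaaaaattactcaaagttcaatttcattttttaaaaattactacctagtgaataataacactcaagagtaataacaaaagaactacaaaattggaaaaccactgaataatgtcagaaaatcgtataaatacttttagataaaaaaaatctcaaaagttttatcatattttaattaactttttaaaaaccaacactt
XTH19: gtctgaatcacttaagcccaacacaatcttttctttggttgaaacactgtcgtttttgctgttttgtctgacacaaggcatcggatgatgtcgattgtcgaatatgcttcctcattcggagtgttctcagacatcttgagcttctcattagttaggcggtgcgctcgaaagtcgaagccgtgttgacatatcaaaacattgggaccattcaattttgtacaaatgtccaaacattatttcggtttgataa
These windows held 22.0% G and C for TCH4 and 40.8% for XTH19. They were searched on both strands for CACGTG (G-box), CCGAC (core of the dehydration-responsive element), CGCG (core of the CAMTA site) and CGTGNG. The last, with any base at N, is looser than the brassinosteroid response element, so a match need not be that element. CACGTG and CGTGNG can overlap. The letters of none of these strings were found, so no capitals appear. Nor were they found in the windows of XTH27 and XTH31. Among 27443 windows of this length before protein-coding genes, 6.49%, 11.97%, 10.1% and 12.5% held these letters in the order given, as did 0, 1, 3 and 4 of the 33 members. XTH18 was among the members with CGCG, and XTH23 and XTH25 among those with CGTGNG.

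Of the 18 tested members that did not pass, 14 had log2 fold changes within 0.2 of 0. The other 4 were XTH15, XTH33, XTH30 and XTH18. XTH15, a gene induced by shade, held 3.19, 3.98, 2.70 and 4.68 CPM in hta9 hta11, against 2.95, 1.77, 1.83 and 2.40 CPM in the wild type, a difference of 0.71 on the log2 scale (SE 0.22, adjusted p = 0.112). The groups overlapped through hta9 hta11 library 3. The gene AT4G14120 overlaps XTH15 on the opposite strand, and the strand setting of the counting is not given in the sources used here. XTH33, which has a membrane anchor, held 3.78, 6.26, 3.10 and 5.03 CPM in hta9 hta11, against 3.24, 2.15, 3.02 and 2.95 CPM in the wild type (log2 fold change 0.68, SE 0.22, adjusted p = 0.129). Its lowest hta9 hta11 library, 3, lay within the wild-type range, and it passed without hta9 hta11 libraries 1 and 3 (0.99, adjusted p = 0.0239). That fit called 929 of all genes, against 757 in the main fit. XTH30, linked to salt tolerance, averaged 7.33 ± 1.16 CPM in hta9 hta11 and 11.2 ± 2.45 CPM in the wild type (log2 fold change -0.61, SE 0.17, adjusted p = 0.0792). XTH30 passed without hta9 hta11 library 1 (-0.71, adjusted p = 0.0428), a fit that called 1246 of all genes. DESeq2, which called 1524 of all genes, called XTH30 and XTH15 as well as the 4 members above.

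The 3 most abundant members, XTH4, XTH9 and XTH7, did not pass. Levels of different genes are compared here as CPM per kb of exon, with exons from RefSeq. XTH4, known from secondary growth and wood cells, stood at 220 ± 20.8 CPM per kb in hta9 hta11 and 220 ± 21.7 CPM per kb in the wild type. XTH9, also known from the shoot apex and from wood cells, stood at 144 ± 5.65 CPM per kb in hta9 hta11 and 156 ± 33.04 CPM per kb in the wild type. XTH7 stood at 81.2 ± 1.12 CPM per kb in hta9 hta11 and 80.9 ± 6.71 CPM per kb in the wild type. Together XTH4, XTH9 and XTH7 held 61.0% of the summed CPM of the family in hta9 hta11 and 56.5% in the wild type.

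In the wild type the order went on with XTH27, XTH6, TCH4, XTH28, XTH24 and XTH16 at 70.2 to 33.5 CPM per kb. From XTH7 down to XTH16, neighbours in this order did not differ beyond their SDs. XTH31, XTH8 and XTH32 followed at 25.7, 21.0 and 11.2 CPM per kb. The other 10 tested members lay between 8.00 CPM per kb for XTH30 and 0.753 CPM per kb for XTH10. TCH4 stood in place 10 of 22 in hta9 hta11 with 18.5 ± 7.66 CPM per kb and in place 6 in the wild type with 45.4 ± 14.1 CPM per kb. No other member shifted as far in this order.

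**Figure D3:**
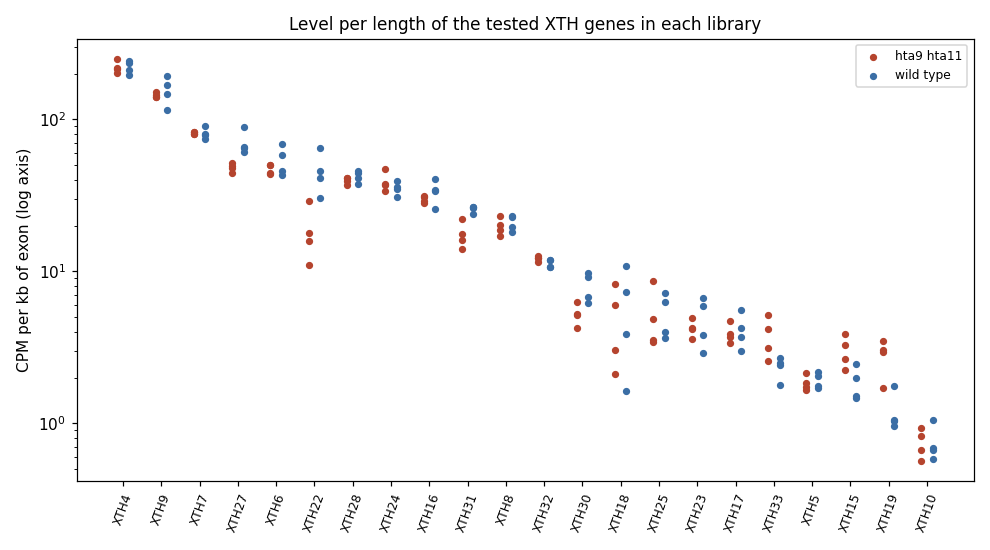
CPM per kb of exon (log axis) in each of the 8 libraries for the 22 tested XTH genes, sorted by the wild-type mean. Levels run from 220 CPM per kb for XTH4 to 0.753 CPM per kb for XTH10 in the wild type, and TCH4 (XTH22) shows the widest gap between genotypes.

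The remaining 11 members had little or no transcript in rosettes. XTH1, XTH2, XTH13 and XTH21 had no count in any library, which over the 301866772 counts of all 8 libraries allows up to 0.00994 CPM (3 counts, covering counting error only). XTH3, XTH12, XTH14 and XTH26 had at most 1 count in any library. XTH12, XTH13, XTH14 and XTH26 are known from root hairs or roots, and XTH21 from roots. XTH11 had 1, 1, 10 and 1 counts in hta9 hta11 and 4, 0, 3 and 5 counts in the wild type. XTH20 had 3, 2, 2 and 3 counts in hta9 hta11 and 0, 0, 6 and 7 counts in the wild type. XTH29 had 5 to 7 counts in hta9 hta11 libraries and 6 to 8 counts in wild-type libraries. All 11 were below the filter on low counts, so the main fit did not test them for a difference.

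Several members lie side by side, and TCH4 and XTH19 each passed beside a neighbour that did not. On chromosome 5, XTH13, XTH25 and TCH4 follow each other, with 565 bases between XTH25 and TCH4, and XTH12 lies before XTH13 with 1 other protein-coding gene between them. XTH25 held 10.2, 4.08, 4.18 and 5.76 CPM in hta9 hta11, against 7.46, 4.31, 4.71 and 8.58 CPM in the wild type, and missed the threshold, with a difference of -0.03 on the log2 scale (SE 0.32, adjusted p = 0.969). On chromosome 4, XTH24, XTH18 and XTH19 lie in this order, with 1500 bases between XTH18 and XTH19. XTH24, first described as MERI5 from meristem tissue, averaged 47.0 ± 7.16 CPM in hta9 hta11 and 42.6 ± 4.26 CPM in the wild type (log2 fold change 0.14, adjusted p = 0.575). XTH18 averaged 6.12 ± 3.54 CPM in hta9 hta11 and 7.48 ± 5.11 CPM in the wild type (log2 fold change -0.28, SE 0.53, adjusted p = 0.83). The differences of XTH25 and TCH4, and of XTH18 and XTH19, were not themselves tested against each other.

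The coding sequences of XTH18 and XTH19 were 89.2% identical, with a longest identical run of 68 bases, and those of XTH17 and XTH18 92.2% identical, with a longest run of 47 bases. TCH4 was closest to XTH23, at 80.9% with a longest run of 24 bases, and was 73.0% identical to XTH25, with a run of 23 bases. Its longest identical run with any member was 30 bases, with XTH21, which had no counts. How reads that map to several places were counted is not given in the sources used here, so counts within the XTH17 to XTH20 group are uncertain to that extent.

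**Figure D4:**
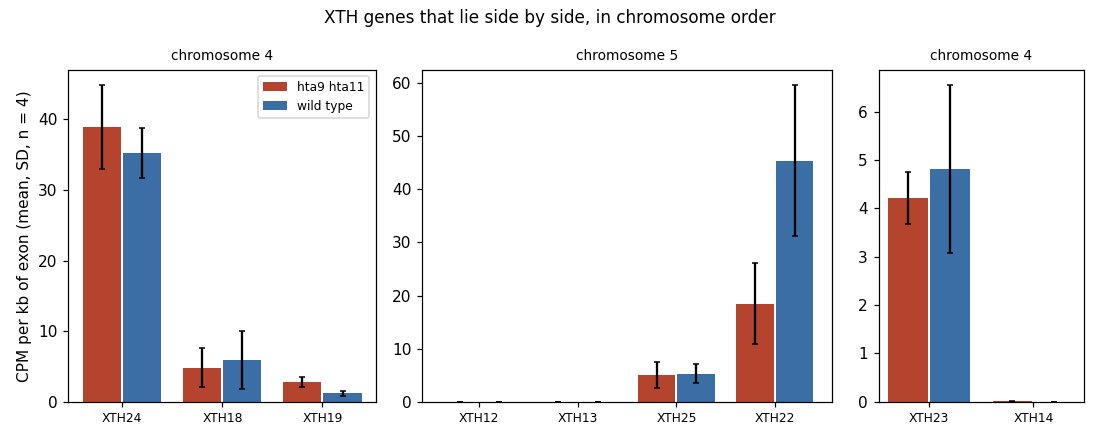
Mean CPM per kb of exon (bars from 0, SD, n = 4 libraries per genotype, with a y scale of its own in each panel) for XTH genes that lie close together, in chromosome order. TCH4 (XTH22) is lower in hta9 hta11 while XTH25 beside it overlaps between genotypes, and the XTH19 mean is higher in hta9 hta11, although the libraries of XTH19, like those of XTH18 and XTH24, overlap between genotypes.

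The spread between libraries of a genotype was marked where the highest of 4 libraries was at least 2-fold the lowest and the genotype mean was at least 1 CPM. In hta9 hta11, 5 of the 22 tested members were marked, against 3.85% of all tested genes at this level. They were XTH18 at 3.88-fold, TCH4 at 2.66-fold, XTH25 at 2.50-fold, XTH19 at 2.02-fold and XTH33 at 2.02-fold. In the wild type 3 of 22 were marked, against 4.33% of all tested genes. They were XTH18 at 6.69-fold, XTH23 at 2.27-fold and TCH4 at 2.11-fold, and XTH25 fell just short at 1.99-fold. The counts were lower with some single libraries left out. In hta9 hta11, 2 members were marked without library 1 and 3 without library 2 or 3. In the wild type 1 member was marked without library 2. Scaling aside, leaving out a library can only lower the ratio of highest to lowest or keep it. No share of all genes so marked is given for these settings.

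XTH18 and TCH4 were thus the members that spread in both genotypes, 2 of 22, against 1.77% of all tested genes of at least 1 CPM in both. XTH18 held 10.4, 2.68, 3.81 and 7.56 CPM in hta9 hta11 libraries 1 to 4, against 9.28, 4.86, 13.7 and 2.05 CPM in wild-type libraries 1 to 4. Its coefficient of variation was 57.9% in hta9 hta11 and 68.4% in the wild type, where counting alone gives 6.31% and 6.03%. For TCH4 it was 41.5% in hta9 hta11 and 31.2% in the wild type, where counting alone gives 2.88% and 1.98%. XTH23, also named XTR6, held 6.73, 5.84, 4.93 and 5.70 CPM in hta9 hta11, against 5.22, 4.02, 9.11 and 8.07 CPM in the wild type, where libraries 3 and 4 stood above libraries 1 and 2. Over the 22 members the median coefficient of variation was 13.8% in hta9 hta11 and 19.7% in the wild type, from 1.38% for XTH7 in hta9 hta11 up to the XTH18 values.

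A list of 10 touch and rapid response genes, among them the calmodulin-like genes TCH2 and TCH3, was set beside TCH4 by library. In edgeR 0 of the 10 passed, while 0 passed in limma-voom and 1 in DESeq2. Of all genes, 757 passed in edgeR, 726 in limma-voom and 1524 in DESeq2. An unadjusted p under 0.05 was found for 4 of the 10, lower for TCH2, RRTF1 and JAZ8 and higher for ERF104 in hta9 hta11, against 18% of all genes tested. The median log2 fold change of the list was -0.42. Without hta9 hta11 library 1, 2 of the list passed in edgeR (TCH2 among them, at -0.68 with adjusted p = 0.0422). That fit called 1246 of all genes. TCH3 averaged 234 ± 34.6 CPM in hta9 hta11 and 295 ± 76.7 CPM in the wild type (log2 fold change -0.33, SE 0.17, adjusted p = 0.336). TCH2 averaged 32.9 ± 9.54 CPM in hta9 hta11 and 46.9 ± 6.65 CPM in the wild type (log2 fold change -0.51, SE 0.19, adjusted p = 0.184).

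In hta9 hta11, TCH4 and the median of the touch list ranked the libraries alike, but the single genes of the list did not all do so. TCH2, ZAT10 and CBF2 shared the order of TCH4. TCH3, CML38, WRKY40, RRTF1 and JAZ8 were instead lowest in hta9 hta11 library 2. CML37 was highest in that library, at 1.48 times its mean, and ERF104 was second highest there. TCH4 stood at 1.57, 0.858, 0.592 and 0.976 times its hta9 hta11 mean in libraries 1 to 4, and the median of the list at 1.51, 0.841, 0.521 and 1.14 times. In the wild type TCH4 stood at 1.00, 0.673, 0.906 and 1.42 times its mean, and the median of the list at 1.19, 0.826, 1.43 and 0.591 times. Wild-type library 4 was thus the highest for TCH4 and the lowest for the list. XTH18 went with the list there, at 1.24, 0.65, 1.83 and 0.274 times its wild-type mean and at 1.70, 0.439, 0.623 and 1.24 times its hta9 hta11 mean. CML38, a calmodulin-like gene of the list chosen after its values were seen, held 8.99, 2.58, 3.19 and 8.04 CPM in hta9 hta11, against 16.4, 7.02, 19.7 and 4.68 CPM in the wild type, and so had the same low library 4 in the wild type as XTH18.

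**Figure D5:**
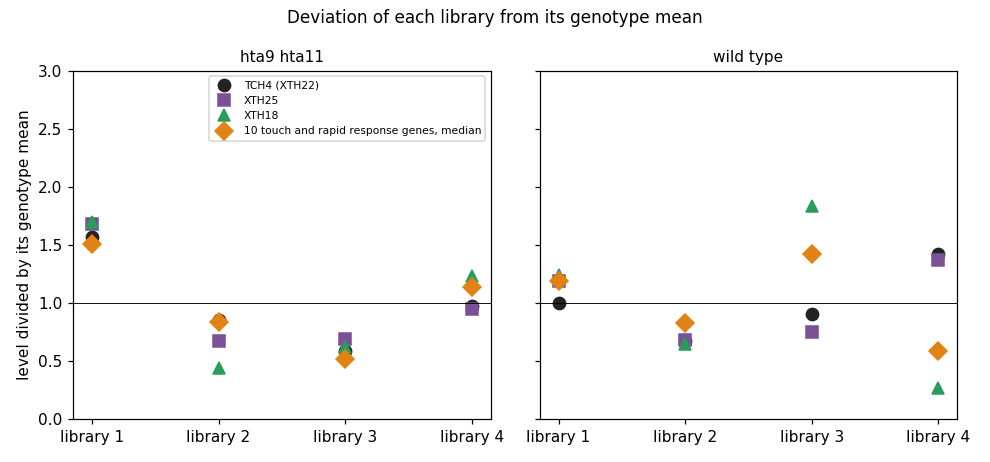
Level in each library divided by the mean of its genotype (y axis, 1 is the mean) for TCH4, XTH25, XTH18 and the median of 10 touch and rapid response genes, in hta9 hta11 and in wild type. All stand high in hta9 hta11 library 1, while in wild-type library 4 TCH4 is at 1.42 and the touch list at 0.591.

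The genes most like TCH4 were ranked by Pearson's r of the deviations of log2(CPM + 1) from the genotype means over 8 libraries. This is a description chosen as the highest of all genes of at least 1 CPM, and the libraries share depth and handling. Within the family XTH25 (0.912), XTH24 (0.801) and XTH16 (0.714) came highest. Outside it, the hexose transporter gene STP1 (0.972), CMPG2 (0.968), AT5G45470 (0.965), RAB8C (0.964) and PHI-1 (0.962) came highest. PHI-1, of the exordium family, held 8.46, 5.00, 4.40 and 5.49 CPM in hta9 hta11, against 19.4, 12.8, 18.6 and 25.7 CPM in the wild type. PHI-1 passed as lower in hta9 hta11 (log2 fold change -1.70, SE 0.24, edgeR adjusted p = 0.00606). The genes ranked above it did not pass. Their log2 fold changes were -0.10 for STP1 (edgeR adjusted p = 0.656), -0.13 for CMPG2 (0.745), -0.048 for AT5G45470 (0.759) and 0.0019 for RAB8C (0.995). Like TCH4, PHI-1 was highest in library 1 of hta9 hta11 and in library 4 of the wild type. So were STP1, CMPG2, AT5G45470 and RAB8C, and the ranking chose all of these genes for such likeness. By the same measure XTH31 (-0.417) and XTH5 (-0.336) were the members least like TCH4. In the touch list the values ran from 0.722 for TCH2 and 0.698 for ERF104 down to 0.080 for RRTF1 and -0.039 for JAZ8.

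Genes for making and trimming xyloglucan, the substrate of the XTH enzymes, were read from the same test. Of 11 genes tested 1 fell and none rose, against 1.25% of all genes lower and 2.49% higher. Their median log2 fold change was -0.19, against -0.0014 over all genes. An unadjusted edgeR p under 0.05 was found for 4 of the 11, against 18% of all genes tested. Of these, XXT1, CSLC4 and AXY4 were lower and AXY8 was higher in hta9 hta11. XXT1, a xylosyltransferase that adds xylose side chains to the glucan backbone, held 22.5, 18.5, 13.8 and 17.8 CPM in hta9 hta11, against 27.4, 24.0, 28.1 and 31.5 CPM in the wild type. The groups did not overlap, and the log2 fold change was -0.61 (SE 0.14, adjusted p = 0.0406). The call held without hta9 hta11 library 1 but not without any other single library, nor with upper-quartile scaling. The highest adjusted p was 0.124, where hta9 hta11 library 4 was absent. Of 9 expansin genes tested, for proteins that loosen walls without cutting xyloglucan, 1 rose and none fell, with a median of 0.16. The shares of all genes are those given above. An unadjusted edgeR p under 0.05 was found for 5 of the 9, against 18% of all genes tested. Of these, EXPA1, EXPA4, EXPA10 and EXPA11 were higher and EXPA8 was lower in hta9 hta11. EXPA1 held 116, 152, 151 and 131 CPM in hta9 hta11, against 90.4, 116, 96.2 and 79.1 CPM in the wild type (log2 fold change 0.53, SE 0.13, adjusted p = 0.0491). Its hta9 hta11 library 1 and wild-type library 2 were nearly level, and the groups did not overlap. The EXPA1 call ended with RLE scaling, with the stricter filter, without hta9 hta11 library 2, 3 or 4 or wild-type library 1, 3 or 4 and without hta9 hta11 libraries 1 and 3 together. There the highest adjusted p was 0.145, where hta9 hta11 library 2 was absent.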

How the data were processed

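A table with a whole-number count for each gene in each of 8 libraries was deposited by the authors, its columns were matched to samples by genotype and replicate number, and 0 columns went unused. The submitters' processing notes name fastp 0.23.2, HISAT2 2.2.1, SAMtools 1.17, DESeq2, limma and the build TAIR10. Neither the counting program nor its handling of strand and of reads with several matches is given in the sources used here. Per the labels' protocols, each library came from poly(A) RNA of 5 pooled plants and a directional kit. Those protocols mention 3 replicates per genotype, while the labels list 4, and all 4 were used. Pairs of libraries of the same genotype differed beyond sampling noise (chi-square over degrees of freedom 13.0 to 47.4), so none was treated as a repeat.

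Counts as deposited were filtered with filterByExpr, scaled with TMM and tested with edgeR 4.0.16 under R 4.3.3 (quasi-likelihood F test, 2-sided). The SE is the absolute log2 fold change divided by the square root of F. Members, lists and rules were chosen with earlier results of these data known. All 33 members are accounted for, with values by library for TCH4, members that passed and members that spread at least 2-fold, and in addition for XTH15, picked after its values were seen. From the xyloglucan, expansin and touch lists the text gives values for genes that passed, or for the 2 highest in CPM where none passed. Other genes named from these lists and from the leaf, root and floral markers were picked after their values were seen. Alternatives were RLE and upper-quartile scaling, 2 other filters (none, and at least 1 CPM in 4 libraries), DESeq2 1.42.0, voom in limma 3.58.1, the replicate number as a block, each library left out and an adjusted p under 0.01. A further setting, which left out hta9 hta11 libraries 1 and 3, was added once the data had been seen. On data simulated for this comparison, with 20088 genes tested, 90.8% of genes changed by 1 on the log2 scale were recovered. Of genes changed by 2, 100% were recovered, with 9 false calls among the rest. The simulation gave each gene the spread usual at its level, so these shares do not cover genes that spread more, such as TCH4 and XTH18. In the real data HTA11 missed the threshold at a log2 fold change of -1.93 (edgeR adjusted p = 0.0924). Positions, exon lengths and sequences came from RefSeq on TAIR10.1, in which all 33 loci were found.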

Additional observations from a re-analysis of the deposited data

Results flagged for a closer look

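In 72 groups of 4 libraries (tested members, named genes of the other lists, the touch list, HTA9 and HTA11, each genotype on its own), a single library stood apart from the other three in 2 of them by Dixon's test at its 95% critical value, where chance gives about 1 in 20. XTH19 was at 2.36 CPM in wild-type library 1, against 1.28 to 1.40 CPM in the other wild-type libraries. XTH27 was at 137.8 CPM in wild-type library 4, against 94.9 to 101.7 CPM in the other wild-type libraries. The XTH19 call held without wild-type library 1, as did the XTH27 call without wild-type library 4.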

How the results depend on the processing

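Among 415 alternative fits of single genes, 340 kept the direction and the side of the threshold, 44 kept the direction but missed the threshold, 5 newly passed and 26 changed sign. Most of the genes pooled here had no call to lose, and all 44 misses fell on genes that had passed. They were 6 of 16 fits each for TCH4 and XTH19, 7 of 16 for XTH27, 8 of 16 each for XTH31 and XXT1 and 9 of 16 for EXPA1. The 4 XTH members called stayed at 4 under RLE and upper-quartile scaling, both other filters and limma-voom. Their number was 6 in DESeq2, 2 under the replicate block and 0 at an adjusted p under 0.01. It was 0 to 4 when each library was left out, and 3 without hta9 hta11 libraries 1 and 3 (TCH4, XTH31 and XTH33). Of all genes, 757 were called, 1524 in DESeq2, 152 at an adjusted p under 0.01, and 208 to 1246 when each library was left out. The xyloglucan list had 1 gene called, 0 with upper-quartile scaling, 3 in DESeq2, 2 under the replicate block, 0 at an adjusted p under 0.01, and 0 to 1 when each library was left out. The expansins had 1 gene called, 0 with RLE scaling, 0 with at least 1 CPM in 4 libraries, 3 in DESeq2, 2 under the replicate block, 0 at an adjusted p under 0.01, 0 without hta9 hta11 libraries 1 and 3, and 0 to 2 when each library was left out. The touch list had 0 called, 1 with no count filter, 1 in DESeq2, 1 without hta9 hta11 libraries 1 and 3, and 0 to 2 when each library was left out. Members that spread at least 2-fold numbered 2 to 5 in hta9 hta11 and 1 to 3 in the wild type when each library was left out. The cause of these shifts was not tested, beyond the fewer libraries or other threshold that each setting brings.

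The log2 fold change of TCH4 (XTH22) ran from -1.60 to -1.08 when each library was left out. Sign changes occurred in 9 members, none of which passed. XTH4 had -0.0013 with RLE scaling, -0.0023 with no count filter, -0.0046 in DESeq2, -0.090 without hta9 hta11 libraries 1 and 3, and -0.064 to 0.051 when each library was left out. XTH5 had 0.039 without hta9 hta11 libraries 1 and 3, and XTH7 had -0.00054 in DESeq2 and -0.041 to 0.059 when each library was left out. XTH10 had 0.018 with upper-quartile scaling, 0.00065 under the replicate block and -0.13 to 0.19 when each library was left out. When each library was left out, XTH9 ran from -0.24 to 0.0053, XTH17 from -0.20 to 0.094, XTH18 from -0.68 to 0.18, XTH23 from -0.37 to 0.018 and XTH25 from -0.42 to 0.15.

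The replicate numbers are shared by the genotypes, but same-numbered libraries had correlations of 0.542, 0.497, -0.349 and -0.281 between their deviations from the genotype means, so the numbers were not taken as pairs. Libraries 1 and 2 correlated best with their own number and libraries 3 and 4 did not. With the number as a block, 847 of all genes were called, and XTH27 (adjusted p = 0.0579) and XTH31 (0.0551) missed the threshold. Members with few counts, XTH11, XTH20 and XTH29 among them, were below the filter of the main fit and not tested there. DESeq2 called no difference for XTH11 (adjusted p = 0.985), XTH20 (0.866) or XTH29 (0.734), and how large a difference these counts could show was not tested.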
